A study of Mus musculus with 6 samples.

Results

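Leukocyte marker genes were examined in hearts of mice that carried 1 targeted allele of Grk2, and in hearts of wild-type (WT) littermates. Grk2, also written Adrbk1, encodes G protein-coupled receptor kinase 2. The list was chosen by name, with earlier results of these data known. It holds 44 genes that mark macrophages, antigen-presenting cells, granulocytes or lymphocytes. A member was measured if a probe set of the array was annotated to its symbol alone, and where a gene had several, the brightest on average stood for it. By this rule 43 of the 44 members were measured, among 18193 genes in all. Ly6c1 was the exception, since its probe set is shared with Ly6c2.

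The GRK2+/- group comprised 3 hearts of 9-month-old mice heterozygous for the B6.129-Adrbk1tm1Mca/J allele, backcrossed for many generations onto C57BL/6J. The WT group comprised 3 hearts of 9-month-old littermates on that background. The targeted allele is a germline allele, so leukocytes and heart muscle cells alike carried it. Per the labels, the upper part of each heart was excised, and RNA was extracted from that piece with no separation of cell types. The markers of atrial muscle were mostly dim in it: 6 of 7 were under the median level of all genes, among them Myl7 (5.61 ± 0.06 in GRK2+/- hearts and 5.50 ± 0.01 in WT hearts, SD, n = 3 each) and Sln. Nppa was the exception, at 9.97 ± 0.61 in GRK2+/- hearts and 11.17 ± 0.39 in WT hearts, without overlap. At an unadjusted p under 0.05 in limma, 2 of the 7 were lower in GRK2+/- hearts and none was higher. These were Nppa (-1.20 ± 0.27, SE) and Bmp10 (-0.19 ± 0.08), and the median of the 7 was 0.11. Myl2, the regulatory light chain of ventricular muscle, averaged 15.07 in GRK2+/- hearts and 15.09 in WT hearts, the top of the gene table. How much atrial tissue the piece held, and whether the genotypes differed in it, was not tested. Each heart was hybridised to 1 Affymetrix array. Values are deposited log2 values of probe brightness, and each difference is GRK2+/- minus WT on that scale.

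The heart holds resident macrophages, most of which lie between muscle cells and along vessels. They take up dying material, present antigen and renew themselves or are replaced by blood monocytes. Monocytes and neutrophils enter from blood in numbers that depend on stress and injury, and lymphocytes are sparse in the undamaged heart. Macrophage identity rests on the receptor for colony-stimulating factor 1 and on transcription factors such as PU.1. In bulk tissue, fewer cells of a type and less RNA per cell cannot be told apart.

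The members as a whole did not separate the genotypes. None of the 43 members passed an adjusted p of 0.05 in limma, as was the case for 0% of all 18193 genes. The smallest adjusted p values among members were 0.0762 for Cd83 and 0.080 for Ms4a6b, and the next was 0.176. At an unadjusted p under 0.05, 10 of the 43 members (23.3%) differed, against 14% of all genes. There were 5 members higher in GRK2+/- hearts, where 6.3% of all genes were higher, and 5 members lower, where 7.7% of all genes were lower. With each gene read from its most variable probe set the split was 3 higher and 7 lower, since Lyz1 and Lyz2 missed the threshold and Laptm5 and Cd8a passed it on the lower side. Of all 18193 genes, 2755 then passed in either direction, against 2546 when read from the brightest probe set. The members higher in GRK2+/- hearts were Cd83, Ptprc, Csf3r, Lyz1 and Lyz2, and those lower were Ms4a6b, Mpo, Lyve1, Cd163 and Fcgr3. Groups did not overlap for 10 members (23.3%), against 19.1% of all genes.

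The median difference over the 43 members was 0.0067, with 22 members above 0 and 21 below. Over all genes the median was -0.019. The mean of the members, relative to the WT mean of each gene, was -0.054, 0.011 and 0.033 in GRK2+/- hearts 1, 2 and 3, against 0.079, -0.014 and -0.065 in WT hearts 1, 2 and 3. These means overlapped between genotypes. Leaving out single hearts moved the counts. The number of members higher was 3 without GRK2+/- heart 2, without GRK2+/- heart 3 or without WT heart 3. In these fits 9.84%, 11.6% and 8.87% of all genes passed in either direction, against 14% with all hearts. The number lower was 3 without WT heart 1, where 16.7% of all genes passed in either direction. Groups did not overlap for 21 members without GRK2+/- heart 1 and for 17 without WT heart 1, where fewer values have to be separated. The share of all genes without overlap in those fits was not counted, so these counts have no background.

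**Figure D1:**
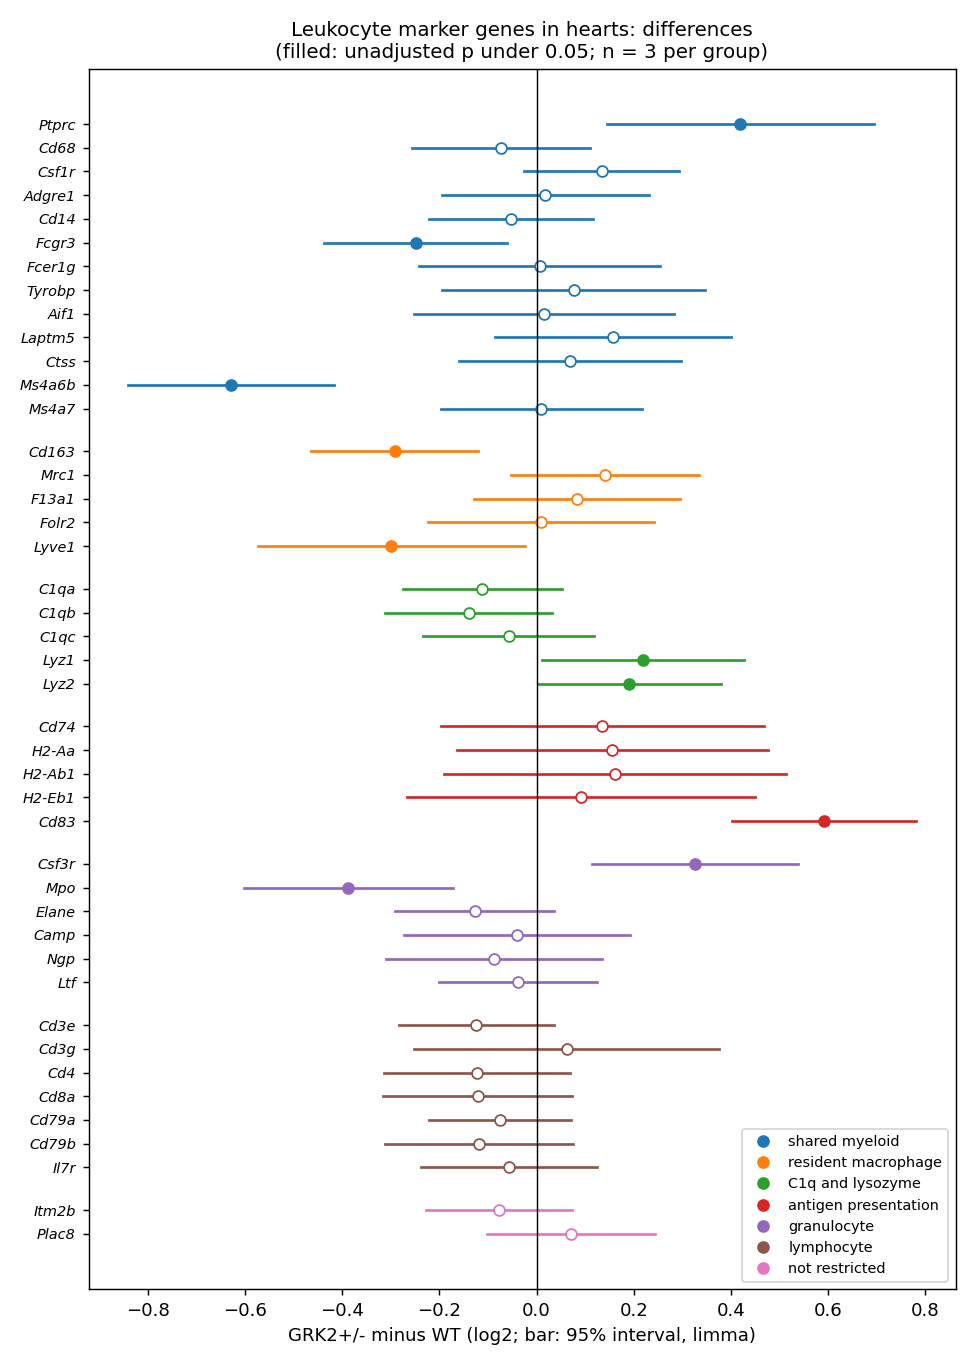
Difference of each of the 43 members, GRK2+/- minus WT on the log2 scale (horizontal axis), with its 95% interval from limma, grouped and coloured by class, n = 3 hearts per group. Filled points mark the 10 members with an unadjusted p under 0.05, 5 on each side of 0; most intervals cross 0.

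The classes were unequally bright on the array. Of the 23 macrophage markers, 22 lay above the median of the gene table (7.24), Aif1 being the exception. All 5 antigen presentation markers also lay above it. By contrast, all 6 granulocyte markers and 6 of the 7 lymphocyte markers lay below that median. Mpo, Ltf, Cd3g, Il7r and Plac8 lay under the 25th percentile (5.76). Brightness also depends on the probes, and the deposited values carry no detection call, so these levels do not rank the cell classes. Whether the dim members were above background was not tested.

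**Figure D2:**
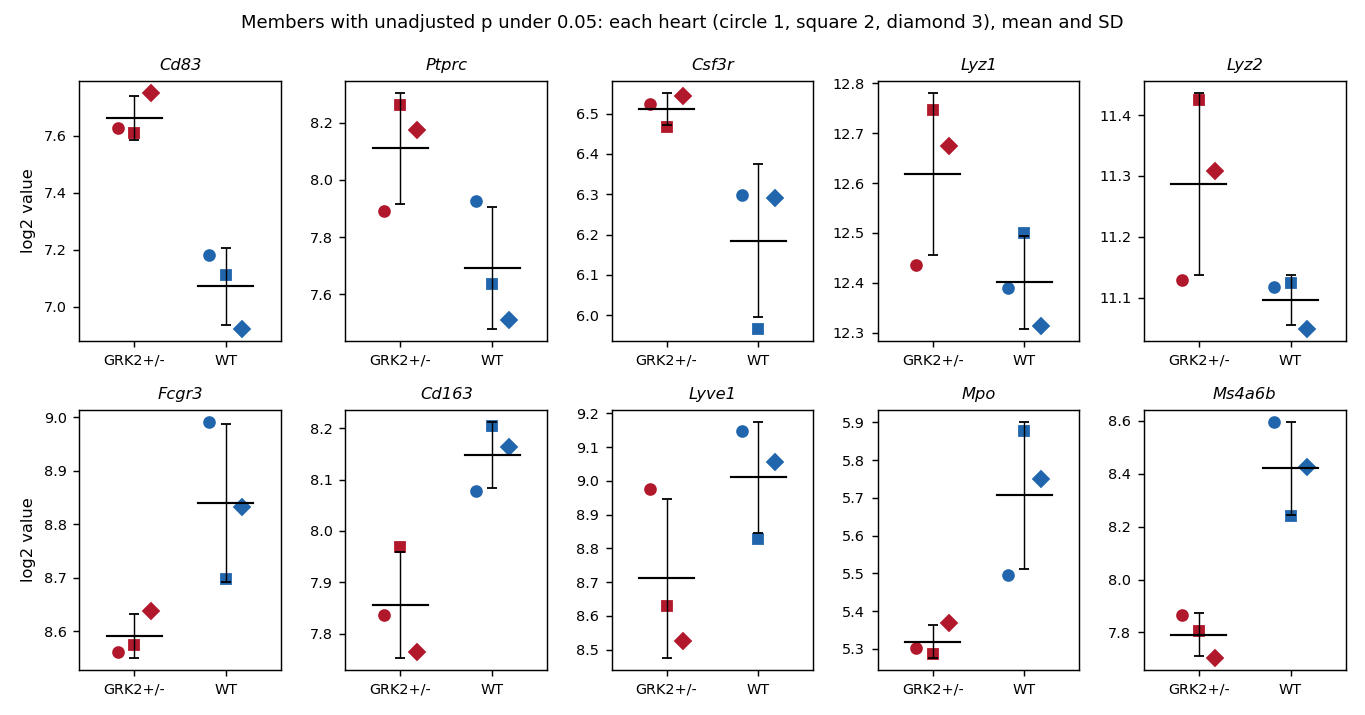
Deposited log2 value of each heart (vertical axis, scaled per panel) for the 10 members with an unadjusted p under 0.05, GRK2+/- left and WT right, with the mean (line) and SD (bar), n = 3. Hearts of the genotypes overlap for Ptprc, Lyz1 and Lyve1 and do not for the other 7 genes.

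Among the 13 markers shared by myeloid cells, 9 were above 0 and 4 below, with a median difference of 0.015. One end of the class was Ms4a6b, a four-span membrane protein of macrophages and some T cells. Ms4a6b measured 7.86, 7.81 and 7.70 in GRK2+/- hearts 1, 2 and 3, against 8.59, 8.24 and 8.43 in WT hearts 1, 2 and 3. Every GRK2+/- heart lay below every WT heart. The difference was -0.63 ± 0.09 (SE, n = 3 per group, 95% interval -0.84 to -0.42), with an unadjusted p of 6.49e-05 and an adjusted p of 0.080 in limma. It was -0.40 with the mean of its probe sets, as the second, dim probe set differed by -0.17. Its relative Ms4a7, also a macrophage gene, differed by 0.01 ± 0.09.

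Ptprc encodes CD45, the phosphatase carried by all nucleated blood cells, and is the broadest leukocyte marker of the list. It measured 7.89, 8.26 and 8.18 in GRK2+/- hearts, against 7.93, 7.64 and 7.51 in WT hearts. GRK2+/- hearts 2 and 3 were above all WT hearts, but GRK2+/- heart 1 was below WT heart 1. The difference was 0.42 ± 0.12 (95% interval 0.14 to 0.69), with an adjusted p of 0.219. A second probe set of Ptprc, under the 25th percentile of genes, differed by -0.020, and the mean of both probe sets gave 0.20.

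Fcgr3 encodes a low-affinity activating receptor for IgG. It measured 8.56, 8.57 and 8.64 in GRK2+/- hearts, against 8.99, 8.70 and 8.83 in WT hearts. The genotypes did not overlap, and the difference was -0.25 ± 0.08 (95% interval -0.44 to -0.06, adjusted p = 0.255). The adaptor that carries its signal, Fcer1g, differed by 0.01 ± 0.11, and the related adaptor Tyrobp (DAP12) by 0.08 ± 0.12. Among 10 measured Fc receptor and signalling partners, chosen by role, 3 were lower at an unadjusted p under 0.05, none was higher and the median was -0.091. Fcgr2b, the inhibitory IgG receptor, was one of them, at 8.56, 8.52 and 8.47 in GRK2+/- hearts against 8.97, 8.61 and 8.79 in WT hearts. Its difference was -0.27 ± 0.09, and all 5 of its probe sets pointed the same way. The other 2 were Plcg2 (-0.26 ± 0.08), a phospholipase, and Inpp5d (-0.15 ± 0.07), the phosphatase SHIP1 that Fcgr2b recruits. The count of partners lower was 1 without WT heart 1 and 2 without any other single heart.

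The other shared myeloid markers gave no difference past the test. Csf1r, the colony-stimulating factor 1 receptor on which macrophages depend, measured 10.90, 10.95 and 11.05 in GRK2+/- hearts against 10.81, 10.90 and 10.79 in WT hearts. The groups did not overlap, and the difference of 0.13 ± 0.07 had an adjusted p of 0.425, with all 3 probe sets in the same direction. Adgre1, which encodes F4/80, differed by 0.02 ± 0.10, and Cd68, a lysosomal glycoprotein, by -0.07 ± 0.08. Cd14, the lipopolysaccharide co-receptor, differed by -0.05 ± 0.08. Aif1 (IBA1, an actin-binding protein) differed by 0.01 ± 0.12, and Ctss, the cathepsin that trims the invariant chain, by 0.07 ± 0.10. Of these, Adgre1 and Fcer1g changed sign with quantile normalisation, and Cd68, Adgre1, Fcer1g, Tyrobp, Aif1, Ctss and Ms4a7 when single hearts were left out.

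Laptm5, a lysosomal membrane protein of blood cells, had probe sets that disagreed. The probe set used, whose name ends in _x_at, differed by 0.16 ± 0.11. Another, at 6.70, 6.69 and 6.69 in GRK2+/- hearts against 7.02, 7.18 and 7.12 in WT hearts, differed by -0.41 with no overlap. In all, 2 of its 5 probe sets were above 0 and 3 below, so the data give no direction for this gene.

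Among 5 markers of tissue-resident macrophages, Cd163 and Lyve1 were lower at an unadjusted p under 0.05, and Mrc1, F13a1 and Folr2 were not. Cd163, the scavenger receptor for haemoglobin bound to haptoglobin, measured 7.84, 7.97 and 7.76 in GRK2+/- hearts, against 8.08, 8.20 and 8.16 in WT hearts. No GRK2+/- heart reached the lowest WT heart. The difference was -0.29 ± 0.08 (95% interval -0.46 to -0.12, adjusted p = 0.191).

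Lyve1, a hyaluronan receptor of lymphatic vessels and of macrophages beside blood vessels, measured 8.98, 8.63 and 8.53 in GRK2+/- hearts, against 9.15, 8.83 and 9.06 in WT hearts. GRK2+/- heart 1 lay within the WT range and the other 2 below it. The difference was -0.30 ± 0.12 (adjusted p = 0.326). The second probe set separated the genotypes, at 8.35, 7.98 and 7.93 in GRK2+/- hearts against 8.70, 8.44 and 8.64 in WT hearts, a difference of -0.50. With all hearts and the first probe set the unadjusted p was 0.0358, and it was between 0.0883 and 0.138 without GRK2+/- heart 2, GRK2+/- heart 3, WT heart 1 or WT heart 3. Of 5 measured genes listed for lymphatic endothelium, 1 was higher (Prox1, a transcription factor, 0.60 ± 0.10), none was lower and the median was 0.099. The part of lymphatic vessels in the Lyve1 value was not tested.

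Mrc1, the mannose receptor, differed by 0.14 ± 0.09, F13a1, coagulation factor XIII subunit A, by 0.08 ± 0.09, and Folr2, folate receptor beta, by 0.01 ± 0.10. The markers of resident macrophages therefore had no shared direction, with a median of 0.0092. In a further list of 17 measured genes of resident macrophages, 3 were higher at an unadjusted p under 0.05, none was lower and the median was 0.023. The 3 were the growth factor Igf1 (0.39 ± 0.08), the chemokine Pf4 (0.32 ± 0.10), which platelets also carry, and the transcription factor Maf (0.21 ± 0.08).

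Values of interferon-induced and glucocorticoid-induced genes are given beside these. Of 12 measured interferon-induced genes, 6 were lower at an unadjusted p under 0.05, 6 passed in neither direction and the median was -0.23. Among all genes 7.7% were lower at that threshold, and the median was -0.019. The mean of the 12 genes relative to WT was -0.32, -0.22 and -0.15 in GRK2+/- hearts, against 0.15, -0.028 and -0.12 in WT hearts. Over the scaling, block and leave-one-out alternatives the count lower lay between 2 and 8. It was 2 without WT heart 1, 3 without GRK2+/- heart 1 and 3 with arrays centred on their medians. Of 12 glucocorticoid-induced genes, 6 were lower, 1 was higher, 5 passed in neither direction and the median was -0.43, with Fkbp5, a chaperone of the glucocorticoid receptor, at -1.39 ± 0.20. Cd163 is known to be induced by glucocorticoids. The part of either response in the values of Cd163 and Ms4a6b was not tested.

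Lysozyme and the complement subunit C1q are abundant products of macrophages, and their genes lay on opposite sides of 0. Lyz1 and Lyz2 are neighbouring duplicates whose products cleave bacterial cell walls. The 120 bases before each start are shown because they set out how alike the copies are. The RefSeq sequences (build GRCm38.p6) lie at chr10:117292869-117292988 for Lyz1 and chr10:117282273-117282392 for Lyz2, both on the minus strand. Capitals mark the 9 bases that differ. The other 111 (92.5%) are the same, among them all of the last 50 before the start, and the starts lie 10596 bases apart.
Lyz1: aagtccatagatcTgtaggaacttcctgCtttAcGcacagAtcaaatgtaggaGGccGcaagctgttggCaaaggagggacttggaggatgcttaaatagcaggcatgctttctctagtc
Lyz2: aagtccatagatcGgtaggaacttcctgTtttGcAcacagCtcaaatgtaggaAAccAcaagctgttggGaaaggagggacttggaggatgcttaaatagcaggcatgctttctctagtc

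Lyz2, the copy made by macrophages and neutrophils, measured 11.13, 11.42 and 11.31 in GRK2+/- hearts, against 11.12, 11.12 and 11.05 in WT hearts. GRK2+/- hearts 2 and 3 were clearly above the WT hearts, whereas GRK2+/- heart 1 was level with the upper WT hearts. The difference was 0.19 ± 0.08 (adjusted p = 0.354). It was 0.12 without GRK2+/- heart 2. The unadjusted p of Lyz2 in limma was 0.0481 with all hearts and 0.00772 without GRK2+/- heart 1. Without any other single heart it lay between 0.0712 and 0.189.

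Lyz1, the copy known from Paneth cells of the gut, gave 12.44, 12.75 and 12.67 in GRK2+/- hearts, against 12.39, 12.50 and 12.31 in WT hearts. The genotypes overlapped, and the difference was 0.22 ± 0.09 (adjusted p = 0.339). The unadjusted p of Lyz1 in limma was 0.0416 with all hearts. It was between 0.0880 and 0.152 without GRK2+/- heart 2, GRK2+/- heart 3, WT heart 1 or WT heart 3. The probe set used and a second one have names ending in _x_at, which marks probes that can also bind other transcripts. The remaining Lyz1 probe set, with a name free of that mark, was under the 25th percentile of genes. It read 5.16, 5.20 and 5.30 in GRK2+/- hearts against 5.14, 5.21 and 5.21 in WT hearts, a difference of 0.037. Whether the bright Lyz1 probe sets also read Lyz2 was not tested, so the pair may hold a single observation of lysozyme.

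**Figure D3:**
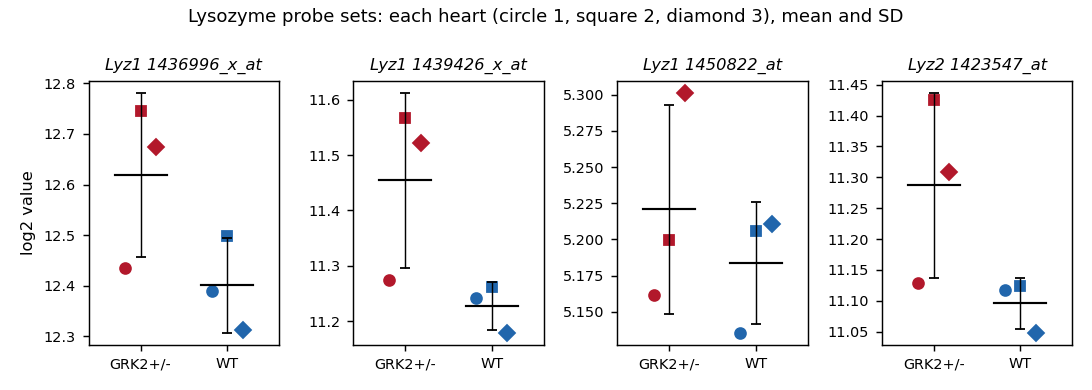
Deposited log2 value of each heart (vertical axis, scaled per panel) for the 3 probe sets of Lyz1 and the 1 of Lyz2, GRK2+/- left and WT right, with the mean (line) and SD (bar), n = 3. GRK2+/- hearts 2 and 3 are above all WT hearts in the panels of Lyz2 and of the Lyz1 probe sets ending in _x_at, and the panel of the third Lyz1 probe set spans values of 5.14 to 5.30 only.

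C1qa, C1qb and C1qc encode the 3 chains of C1q, which starts the classical complement pathway. C1qa measured 9.93, 9.95 and 9.93 in GRK2+/- hearts, against 10.16, 10.02 and 9.95 in WT hearts. C1qb measured 10.11, 10.10 and 10.07 in GRK2+/- hearts, against 10.37, 10.15 and 10.18 in WT hearts. Neither chain overlapped between the genotypes, although the gap was small beside the spread of the WT hearts. The differences were -0.11 ± 0.07 for C1qa (95% interval -0.28 to 0.05, adjusted p = 0.513) and -0.14 ± 0.08 for C1qb (95% interval -0.31 to 0.03, adjusted p = 0.444).

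C1qc measured 9.06, 9.09 and 9.14 in GRK2+/- hearts, against 9.29, 9.05 and 9.13 in WT hearts, with overlap and a difference of -0.06 ± 0.08. The GRK2+/- hearts were close to each other in all 3 chains, with SDs of 0.011, 0.025 and 0.041, against 0.10, 0.12 and 0.12 in WT hearts. WT heart 1 was the highest heart for each chain. These 2 traits describe the probe sets used. The most variable of the 3 C1qb probe sets read 8.61, 8.77 and 8.55 in GRK2+/- hearts, against 8.73, 8.59 and 8.29 in WT hearts. There GRK2+/- heart 2 was the highest and the GRK2+/- hearts were less close. That probe set also gave the other sign (0.10), so the direction of C1qb depends on the probe set.

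Class II antigen presentation was carried by H2-Aa, H2-Ab1 and H2-Eb1, chains of the molecules that show peptides to CD4 T cells, and by Cd74, the invariant chain that guards them on the way to the cell surface. The promoters of class II genes share conserved boxes, among them a Y box bound by the factor NF-Y. The windows of H2-Aa and H2-Eb1 are shown as examples, since they hold the letters of this box. They cover the 120 bases before the start in RefSeq (build GRCm38.p6), at chr17:34287824-34287943 on the minus strand for H2-Aa and chr17:34305747-34305866 on the plus strand for H2-Eb1. Capitals mark the Y box letters CTGATTGG, which end 43 bases before the start of H2-Aa and 54 bases before that of H2-Eb1.
H2-Aa: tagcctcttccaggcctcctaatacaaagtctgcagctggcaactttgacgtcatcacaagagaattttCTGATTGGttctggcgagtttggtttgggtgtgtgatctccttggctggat
H2-Eb1: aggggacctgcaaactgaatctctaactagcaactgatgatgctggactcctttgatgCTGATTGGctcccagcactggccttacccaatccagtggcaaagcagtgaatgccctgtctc

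These letters, on either strand from 250 bases before to 50 bases after the start, were found for 3 of the 33 members with a window, namely H2-Aa, H2-Eb1 and Plac8, and for 4.7% of 27025 genes. The letters GAGGAAGT, a core bound by PU.1, were found for 6 of the 33 members, namely Ctss, F13a1, C1qc, Mpo, Elane and Ly6c1, and for 3.69% of those genes. A match describes the letters alone.

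H2-Aa measured 11.34, 11.43 and 11.74 in GRK2+/- hearts, against 11.63, 11.33 and 11.08 in WT hearts. H2-Ab1 measured 9.58, 9.68 and 10.01 in GRK2+/- hearts, against 9.94, 9.55 and 9.29 in WT hearts. The genotypes overlapped widely for both genes, since WT heart 1 was above GRK2+/- hearts 1 and 2. H2-Eb1 measured 9.82, 10.03 and 10.25 in GRK2+/- hearts, against 10.31, 9.86 and 9.65 in WT hearts. Cd74 measured 10.39, 10.43 and 10.76 in GRK2+/- hearts, against 10.74, 10.29 and 10.15 in WT hearts. In all 4 genes GRK2+/- heart 3 and WT heart 1 were the highest hearts and WT heart 3 the lowest.

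The differences were 0.16 ± 0.14 for H2-Aa (95% interval -0.16 to 0.48), 0.16 ± 0.16 for H2-Ab1 (-0.19 to 0.51), 0.09 ± 0.16 for H2-Eb1 (-0.27 to 0.45) and 0.13 ± 0.15 for Cd74 (-0.20 to 0.47). Their adjusted p values in limma were between 0.65 and 0.83, and every interval held 0. Single hearts moved these values: without WT heart 1 they were 0.30 for H2-Aa, 0.33 for H2-Ab1 (unadjusted p = 0.0389), 0.28 for H2-Eb1 and 0.31 for Cd74 (unadjusted p = 0.0324). Without GRK2+/- heart 3 they were 0.036 for H2-Aa, 0.036 for H2-Ab1, -0.018 for H2-Eb1 and 0.019 for Cd74, and without WT heart 3 they were 0.022, 0.013, -0.054 and 0.014 in the same order of genes. The mean of the 4 genes relative to WT was -0.037, 0.073 and 0.37 in GRK2+/- hearts, against 0.34, -0.061 and -0.27 in WT hearts. Hearts of the same genotype therefore differed from each other by more than the genotypes did. All 4 probe sets of H2-Aa were above 0, whereas 1 of 3 was for H2-Ab1, whose difference was -0.037 without probe sets ending in _x_at or _s_at. All 4 names of H2-Aa probe sets carry such an ending, so H2-Aa could not be read in that setting.

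**Figure D4:**
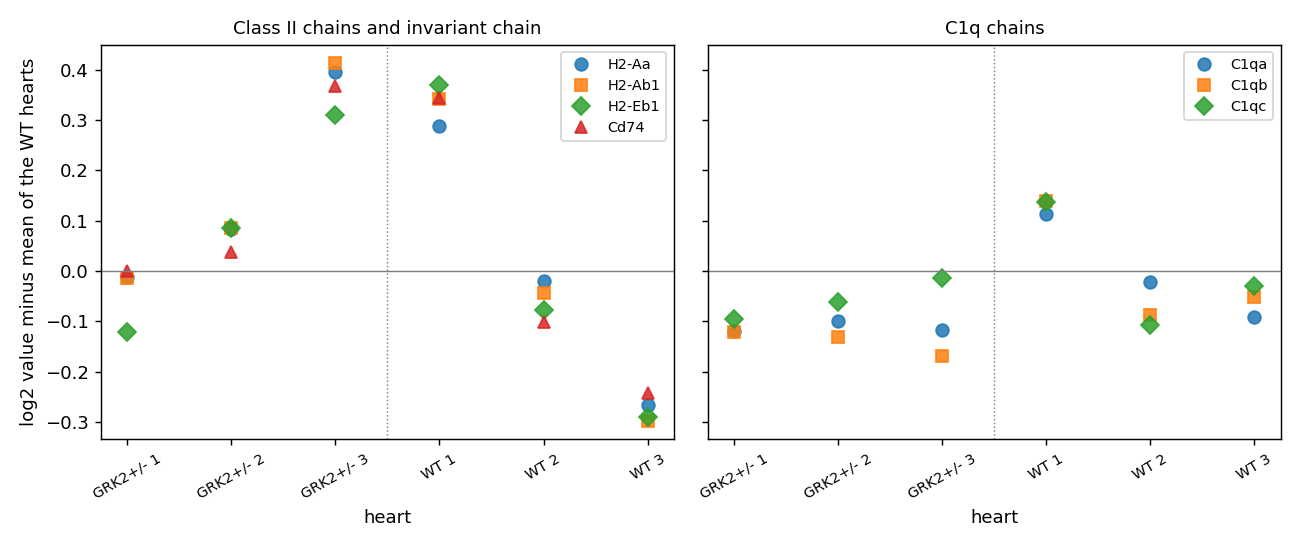
Deposited log2 value of each heart minus the mean of the WT hearts (vertical axis) for the class II chains with Cd74 (left) and the C1q chains (right), GRK2+/- hearts before WT hearts along the horizontal axis. With each gene read from its brightest probe set, the 4 antigen presentation genes are highest in GRK2+/- heart 3 and WT heart 1. The C1q chains are highest in WT heart 1, with the GRK2+/- hearts close together.

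Cd83, a surface protein of activated dendritic cells and B cells that stabilises class II at the surface, departed from the other antigen presentation genes. It measured 7.63, 7.61 and 7.75 in GRK2+/- hearts, against 7.18, 7.11 and 6.92 in WT hearts. Every GRK2+/- heart was above every WT heart by more than the spread within either genotype. The difference was 0.59 ± 0.08 (95% interval 0.40 to 0.78), which is 1.51-fold, with an unadjusted p of 4.22e-05 and an adjusted p of 0.0762. It passed the adjusted threshold with a prior that follows the level (adjusted p = 0.0348) and with array weights (adjusted p = 0.0469), both in limma. In these settings 42 and 12 of all 18193 genes passed, against 0 in the main fit. Cd83 has 1 probe set, so no second one could be set beside it.

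Other genes of class II presentation and dendritic cells did not follow Cd83. Of 16 measured, 1 was higher at an unadjusted p under 0.05 (Cd86, a costimulatory ligand, 0.15 ± 0.07) and 2 were lower, the costimulatory genes Cd80 (-0.21 ± 0.09) and Cd40 (-0.20 ± 0.09). The direction of each depended on the probe set. It was shared by 1 of 2 probe sets of Cd86, 1 of 4 of Cd80 and 2 of 3 of Cd40. The median of the 16 genes was -0.049. With single hearts left out, between 0 and 2 of them were higher and between 0 and 2 lower.

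Among the 6 granulocyte markers, all below the gene median, 1 was higher and 1 lower at an unadjusted p under 0.05. Csf3r, the receptor for granulocyte colony-stimulating factor on mature neutrophils, measured 6.52, 6.47 and 6.54 in GRK2+/- hearts, against 6.30, 5.97 and 6.29 in WT hearts. All GRK2+/- hearts lay above the WT hearts, and WT heart 2 stood low. The difference was 0.33 ± 0.10 (adjusted p = 0.216), and it was 0.22 without WT heart 2.

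Mpo, myeloperoxidase of the primary granules, measured 5.30, 5.29 and 5.37 in GRK2+/- hearts, against 5.49, 5.88 and 5.75 in WT hearts. The genotypes did not overlap, but all values were near the bottom of the scale. The difference was -0.39 ± 0.10 (adjusted p = 0.176). Elane, the elastase stored in the same granules, differed by -0.13 ± 0.07. The genes of secondary granules Camp (cathelicidin), Ngp (neutrophilic granule protein) and Ltf (lactoferrin) differed by -0.04 ± 0.10, -0.09 ± 0.10 and -0.04 ± 0.07. Granule genes are transcribed mainly in immature cells of the marrow, whereas Csf3r persists in circulating neutrophils.

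A further list of neutrophil genes was mixed. Of 16 measured, 4 were higher at an unadjusted p under 0.05, 12 passed in neither direction, 6 of the 16 were below 0 and the median was 0.082. S100a9 (2.25 ± 0.33, adjusted p = 0.0762) and S100a8 (1.97 ± 0.29, adjusted p = 0.080), the calprotectin subunits, had the largest differences of that list. The others were the cytokine Il1b (0.47 ± 0.09) and the gelatinase Mmp9 (0.27 ± 0.10), and 11 of the 16 lay below the gene median. Of 12 monocyte genes, 1 was higher, the immediate early gene Nr4a1 (1.46 ± 0.25), none was lower and the median was 0.13.

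None of the 7 lymphocyte markers had an unadjusted p under 0.05 when read from its brightest probe set, and none then separated the genotypes. Their median difference was -0.12, with 6 of the 7 below 0. Cd4, the co-receptor of helper T cells, which was the sole lymphocyte marker above the gene median, averaged 7.51 ± 0.08 in GRK2+/- hearts and 7.63 ± 0.14 in WT hearts (SD, n = 3 each). It differed by -0.12 ± 0.09 (SE). Cd8a, the co-receptor of cytotoxic T cells, differed by -0.12 ± 0.09, with all 5 probe sets below 0. It was -0.14 with the mean of its probe sets (unadjusted p = 0.0311, adjusted p = 0.346 in limma) and -0.28 with the most variable one (unadjusted p = 0.0179, adjusted p = 0.254).

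Of the CD3 chains of the T cell receptor complex, Cd3e differed by -0.12 ± 0.07 and Cd3g by 0.06 ± 0.14. The B cell receptor partners Cd79a and Cd79b differed by -0.08 ± 0.07 and -0.12 ± 0.09. Il7r, the interleukin 7 receptor, differed by -0.06 ± 0.08 at a level under the 25th percentile.

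Itm2b and Plac8 mark no single leukocyte class. Itm2b, an integral membrane protein expressed in most tissues, averaged 13.86 ± 0.04 in GRK2+/- hearts and 13.93 ± 0.05 in WT hearts (SD, n = 3 each), so leukocytes cannot be read from it here. Its difference was -0.08 ± 0.07 (SE), and that of Plac8, a small protein of several leukocyte types, was 0.07 ± 0.08.

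Markers of the cells around the leukocytes were read from the same arrays. Of 10 cardiomyocyte markers, 1 was higher at an unadjusted p under 0.05 (Ryr2, the calcium release channel, 0.35 ± 0.08, without overlap), none was lower and the median was 0.0015. Of 11 endothelial genes, 3 were higher at an unadjusted p under 0.05, none was lower and the median was 0.11, and of 10 fibroblast genes 1 was higher and 1 lower (median 0.094). The array's control for RNA integrity, the 3′ minus 5′ signal of Actb, was 0.98 ± 0.08 in GRK2+/- hearts and 0.78 ± 0.04 in WT hearts (SD, n = 3 each), and that of Gapdh was 0.030 ± 0.016 in GRK2+/- hearts and 0.0051 ± 0.039 in WT hearts. The part of RNA integrity in the member differences was not tested. Array medians lay between 6.25 and 6.31. No probe set of the annotation used here named Grk2 itself, so its own level could not serve as a check of the genotypes.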

How the data were processed

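RNA of the excised piece of 3 GRK2+/- and 3 WT hearts was measured on 1 Affymetrix array per heart. The values are log2 expression as deposited, made by the authors with RMA, and limma is also named, per the submitters' processing notes; versions are not given in the sources. RMA summarises probes without a detection call, so dim values have no stated floor.

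Of 45101 probe sets, 64 controls were left out, and 34945 of the remaining 45037 had 1 gene symbol. Each of 18193 genes was read from its brightest probe set (highest 6-array mean). Differences came from limma 3.58.1 in R 4.3.3 (lmFit, eBayes, two-sided), adjusted over all genes by Benjamini-Hochberg at 0.05. An exact permutation test of 3 hearts against 3 cannot go below p = 0.1. The fit was checked on simulated data with independent normal noise for each gene and heart. Effects that genes share within a heart were therefore outside that check.

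The members and lists were chosen with earlier results of these data known, so unadjusted counts are descriptions. Values per heart are given for members with an unadjusted p under 0.05, members without overlap that differed by at least 0.2, and the C1q, class II and lysozyme families; Csf1r and 1 Laptm5 probe set were added after their values were seen. In other lists, up to 3 genes with the smallest p are named, besides S100a8 and S100a9. Myl7, Sln and Myl2 are exceptions, named for their levels as markers of atrial or ventricular muscle. Counts in these lists stand beside 6.3% of all genes higher and 7.7% lower at an unadjusted p under 0.05 in limma. Alternatives covered scaling, probe set choice, filters on dim genes, the variance prior, array weights, a replicate block and each heart left out.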

Additional observations from a re-analysis of the deposited data

How the results depend on the processing

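No member had an adjusted p under 0.05 except with a prior that follows the level (2 members, Ms4a6b and Cd83) and with array weights (1 member, Cd83). Of all 18193 genes, 42 passed with that prior and 12 with array weights, against 0 in the main fit. When each gene was read from its most variable probe set, 3 members were higher and 7 lower at an unadjusted p under 0.05. In that setting 2755 of all 18193 genes passed this threshold in either direction, against 2546 in the main fit. Leaving out each heart in turn gave 3 to 5 members higher, 3 to 5 lower and 10 to 21 without overlap. Between 8.87% and 16.7% of all genes passed in either direction in those fits, and their share without overlap was not counted. Replicate numbers did not pair the hearts (correlations of deviations -0.145, -0.020 and 0.0095), and with the replicate block 4 members were higher, 5 lower and 0 passed the adjusted threshold. With that block 12.5% of all genes passed in either direction. Of the 43 members, 24 kept their sign in every alternative run. The sign turned with quantile normalisation for Adgre1 (-0.0011), Fcer1g (-0.018) and Folr2 (-0.0014), with the mean of probe sets for Laptm5 (-0.096) and Ms4a7 (-0.0049), with the most variable probe set for Laptm5 (-0.41), C1qb (0.10) and Itm2b (0.015), and without probe sets ending in _x_at or _s_at for Laptm5 (-0.41) and H2-Ab1 (-0.037). It also turned when single hearts were left out, with ranges of -0.115 to 0.0011 for Cd68, -0.056 to 0.095 for Adgre1, -0.080 to 0.11 for Fcer1g, -0.053 to 0.21 for Tyrobp, -0.069 to 0.13 for Aif1, -0.034 to 0.15 for Ctss, -0.071 to 0.087 for Ms4a7, -0.0093 to 0.17 for F13a1, -0.11 to 0.093 for Folr2, -0.11 to 0.011 for C1qc, -0.054 to 0.28 for H2-Eb1, -0.11 to 0.066 for Camp, -0.14 to 0.012 for Ngp, -0.075 to 0.18 for Cd3g and -0.098 to 0.019 for Il7r. The cause was not tested. Over the scaling, block and leave-one-out alternatives, the median of interferon-induced genes lay between -0.30 and -0.18, that of glucocorticoid-induced genes between -0.56 and -0.29, that of neutrophil genes between 0.044 and 0.11, and that of further resident macrophage genes between -0.0054 and 0.061. Signal over background was not measured, and 3 hearts per genotype limit the precision of every value.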

Other observations

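The probe set shared by Ly6c1 and Ly6c2, surface proteins of monocytes, some T cells and endothelium, was lower in GRK2+/- hearts than in WT hearts. It measured 12.02, 11.79 and 11.88 in GRK2+/- hearts, against 12.27, 12.34 and 12.41 in WT hearts, without overlap. The difference was -0.44 ± 0.08 (SE, n = 3 per group), with an adjusted p of 0.143 in limma over 45037 probe sets. Which of the genes it reads cannot be told apart.

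Cytotoxic lymphocyte genes were read from a further list of 14 measured T and NK cell genes. At an unadjusted p under 0.05, 2 were lower, the chemokine Ccl5 (-0.36 ± 0.11) and the granzyme Gzma (-0.19 ± 0.08), none was higher and the median was -0.0999. Of 9 B cell genes, 1 was lower (Ighm, the heavy chain of IgM, -0.26 ± 0.11), none was higher, 5 were above 0 and the median was 0.0995. Ighm had 11 probe sets, 8 of them in this direction. Of 8 mast cell genes, none had an unadjusted p under 0.05 and the median was 0.0017. Of 6 platelet genes, Pf4 was higher (0.32 ± 0.10), whereas Gp9 and Itga2b, a glycoprotein and an integrin chain of the platelet surface, were lower, at -0.19 and -0.18.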
